A study of Mus musculus with 6 samples.

Results

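The genes described here are the long and small non-coding RNA genes in the deposited table of KYSE30 cells, 112 of its 4195 genes (2.67%). They were taken by the table's own biotype column, as every row that was neither protein-coding, nor a pseudogene, nor mitochondrial. Of the 112, 44 were labelled antisense, 33 lincRNA (long intergenic non-coding RNA), 9 processed_transcript and 7 TEC, a label for loci whose evidence still has to be tested. A sense_overlapping, a sense_intronic, a bidirectional_promoter_lncRNA, a snoRNA, a snRNA, a miRNA and a misc_RNA gene made up 1 each. The remaining 12 carried no biotype, symbol or description, so that nothing in the table says whether they are coding or not, and they are called unannotated loci below.

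KYSE30 is an established line of human squamous carcinoma cells of the esophagus. The ACh group of 3 libraries came from cells exposed for 4 h to 100 uM acetylcholine (ACh), a neurotransmitter that binds muscarinic and nicotinic receptors, and the Control group of 3 libraries from cells without it, also labelled 4 h. Both groups are labelled WT and grew in the same serum-containing medium, and the question was which transcripts differ after this exposure. Whether the 3 libraries of a group came from separate cultures is not stated, and if they did not, the p-values reflect technical spread alone. In bulk RNA, fewer cells of a kind and less RNA per cell cannot be told apart.

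Long non-coding RNAs act mostly as RNA, for example as scaffolds of nuclear bodies or as binding platforms for proteins. Others matter through what lies in their introns, as in the host genes of small nucleolar RNAs, which guide the chemical modification of ribosomal RNA. Antisense and divergent RNAs are transcribed from the strand opposite a neighbouring gene, often from a shared promoter region.

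Values are normalised read counts, that is, read counts divided by the authors by one factor per library. Every positive value in the 6 libraries was a whole multiple of one step per library, of 1.05 to 1.13 in ACh and 0.768 to 1.01 in Control, within 0.01 of a step. A step may be 1 read. The total depth is unknown. The listed genes summed to between 10519515 and 10681118 in the ACh libraries and between 11097307 and 11468978 in the Control libraries. A gene is said to have risen or fallen only where it passed both the limma test on log2(value + 1) (Benjamini-Hochberg adjusted p under 0.05 over the listed genes) and the authors' deposited adjusted p of 0.05. All 4195 genes of the table had a p under 0.05 in the authors' own test, so every gene in it had been chosen for a difference, and genes outside it have no value here.

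Of the squamous markers TP63, KRT5, KRT6A, KRT14, KRT15, KRT17, SOX2, DSG3, DSC3 and PERP, 5 of 10 were listed. These were DSC3, DSG3, KRT15, SOX2 and TP63, with summed values of 10518 to 11091 in ACh and 10802 to 11093 in Control. The sums overlapped, but each of the 5 genes had a p under 0.05 in the authors' test, so the sums can hide differences of single genes. The one listed fibroblast marker of 6, COL1A1, stood at 133 to 147 in ACh and 146 to 193 in Control, and the one listed leukocyte marker of 5, LAPTM5, at 31.1 to 48.2 in ACh and 17.7 to 21.3 in Control. Of 4 endothelial markers EGFL7 was listed, at 818 to 970 in ACh and 1052 to 1081 in Control, and of 3 markers of simple epithelium KRT8 and KRT18 were, with sums of 62272 to 63678 in ACh and 72645 to 78816 in Control. The part of these differences in the results below was not tested.

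The non-coding genes were a small and uneven share of the listed reads. Together they summed to 0.479% to 0.483% of the listed total in the ACh libraries and to 0.448% to 0.460% in the Control libraries, without overlap between the groups. The sums themselves, 50836 to 51176 in ACh and 50317 to 51350 in Control, overlapped, while the listed total was lower in every ACh library. In each library 12 genes with a mean of at least 1000 held 83.9% to 84.5% of the non-coding reads, and the 69 lowest genes together held 1.59% to 1.64% in ACh and 1.66% to 1.83% in Control. The median non-coding gene had a mean of 23.3 over the 6 libraries, against 1194 for all listed genes, and a length of 2114.5 bases, against 5220. Between 100 and 104 non-coding genes were above 0 in an ACh library and 94 or 95 in a Control library.

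Calls numbered 20 among the 112 genes (17.9%), with 11 genes higher in ACh and 9 lower. Without the 12 unannotated loci, 9 of the remaining 100 genes were higher and 7 lower (16.0% called). Of all listed genes 63.8% passed both tests, with 28.8% higher and 35.0% lower. The deposited adjusted p was exactly 1 for 69 of the 112 genes, all with a mean of at most 65.8, which is read here as no adjusted value, and such genes could not pass. That was 61.6% of the non-coding genes and 5.58% of all listed genes. Among the 43 non-coding genes with an adjusted value 46.5% passed, against 67.6% of all listed genes with one (30.5% higher and 37.1% lower). Of the 40 with a mean of at least 100, 50.0% passed, against 67.9% of all listed genes at that level (30.6% higher and 37.3% lower). By abundance, 9 of the 12 genes with a mean of at least 1000 passed (75.0%, against 77.5% of all listed genes in that range) and 11 of the 28 with a mean of 100 to 1000 (39.3%, against 53.3%). Below a mean of 100, 0 of 72 passed both tests, while limma alone called all 72 and the authors' unadjusted p was under 0.05 for each. Few low genes of the whole table passed either. Of all listed genes with a mean of 20 to 100, 4.86% passed (5 higher and 2 lower of 144), and under 20, 0 of 117. Limma alone called 143 of these 144 and 115 of these 117. The changes were small. The 20 genes moved by 1.09-fold to 1.56-fold with a median of 1.26-fold, against a median of 1.16-fold for all listed genes that passed.

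**Figure D1:**
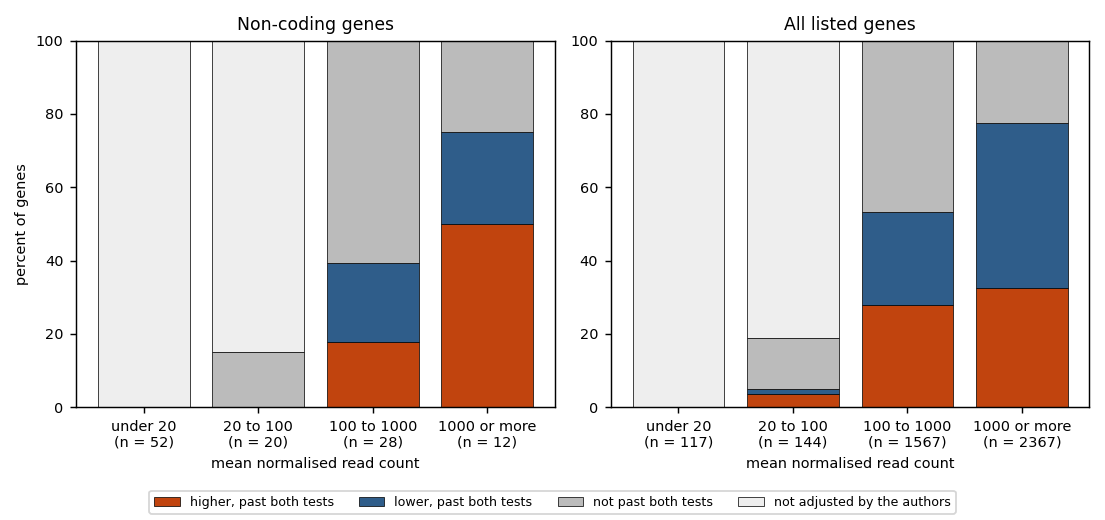
Percent of genes in 4 ranges of mean normalised read count that passed both tests as higher or lower in ACh, did not pass, or had no adjusted p from the authors, for the 112 non-coding genes (left) and all 4195 listed genes (right). In the top range 9 of 12 non-coding genes passed, and under a mean of 20 all 52 lacked an adjusted p.

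The groups did not overlap in 96 of the 112 non-coding genes, 54 higher and 42 lower in ACh. Of all listed genes 93.0% did not overlap (44.6% higher and 48.3% lower), a larger share than among the non-coding genes. The groups overlapped in 16 of the 112, of which 13 had no adjusted p, and in 295 of all 4195. Among the 69 without an adjusted p, 34 were higher and 22 lower without overlap, where 84.6% of all listed genes without one did not overlap (49.1% higher and 35.5% lower). By their means 60 of the 112 were higher and 52 lower. The median log2 difference was 0.14 over the non-coding genes and -0.10 over all listed genes. With genes under a mean of 20 left out the median of the non-coding genes was -0.0019. The median size of the difference, regardless of sign, was 0.97 on the log2 scale in the non-coding genes and 0.21 in the table. It was 0.15 for the 12 most abundant non-coding genes and 1.81 for the 52 with a mean under 20, for which all listed genes in the same ranges had 0.17 and 1.80.

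**Figure D2:**
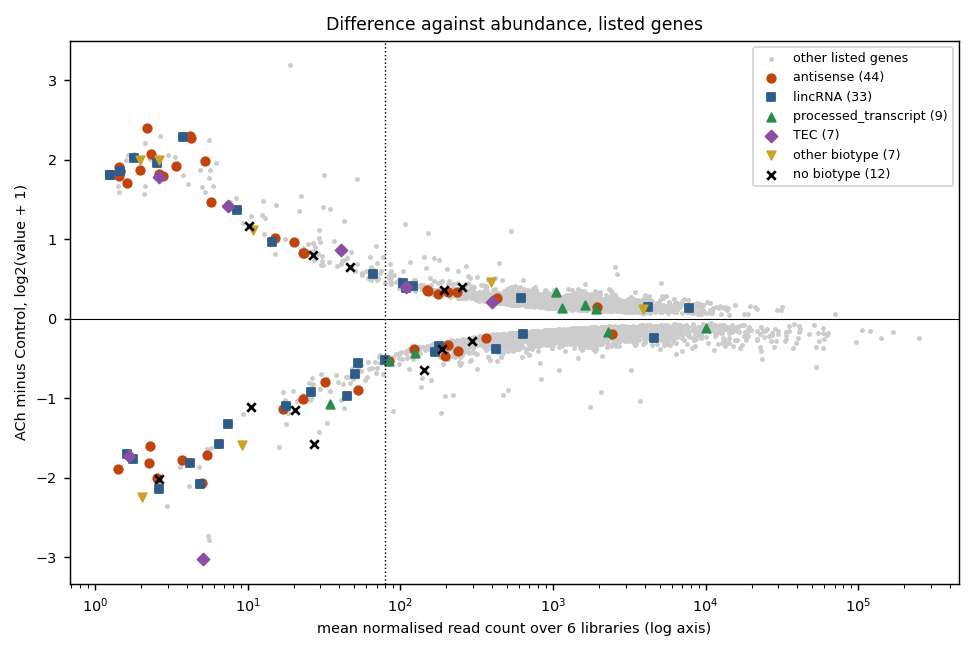
Difference between ACh and Control on the log2(value + 1) scale against the mean normalised read count (log axis), for the non-coding genes by biotype and for the other listed genes in grey. The dotted line marks 79.5, the lowest mean of a non-coding gene with an adjusted p, and the empty band around 0 is the authors' p limit, which is wider for low genes.

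Host genes of small nucleolar RNAs went both ways. Of 38 symbols in this list 6 were in the table, and of these SNHG16 and SNHG1 rose, SNHG7 and SNHG6 fell, and GAS5 and SNHG25 missed a test, so that 66.7% were called, near the 63.8% of all listed genes. Their introns carry small nucleolar RNAs, and the spliced RNA is itself non-coding. SNHG16, on chromosome 17 from 76557766 to 76565348 (ENSG00000163597; coordinates as the file gives them, human build not given in the sources used here), had 1170, 1168 and 1154 in ACh, against 927, 949 and 893 in Control. Every ACh library lay above every Control library, and it had the largest rise among the 12 abundant genes, 0.33 on the log2 scale (SE 0.05; limma adjusted p = 1.55e-05). SNHG1 had 1800, 1772 and 1598 in ACh, against 1557, 1579 and 1457 in Control. It rose by 0.17, although ACh replicate 3 stood close to the highest Control library.

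SNHG7 and SNHG6 moved the other way. SNHG7, which the file labels antisense, had 2142, 2328 and 2326 in ACh, against 2554, 2737 and 2456 in Control, and its log2 difference was -0.19. SNHG6 had 2222, 2259 and 2054 in ACh, against 2366, 2491 and 2444 in Control, and its log2 difference was -0.16. In both genes every ACh library lay below every Control library. The call of SNHG6 ended when the libraries were scaled to equal totals over the listed genes, at a log2 difference of -0.0806 (limma adjusted p = 0.0712).

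GAS5, a host gene whose RNA accumulates in growth-arrested cells, had 1988, 1981 and 2043 in ACh, against 1782, 1956 and 1806 in Control. Its log2 difference was 0.12 (limma 95% interval 0.03 to 0.20), and it missed the authors' deposited adjusted p, at 0.0906. SNHG25 was near the floor, with 2.14, 4.53 and 4.19 in ACh and 18.8, 6.09 and 9.21 in Control, and had no adjusted p from the authors. The most abundant non-coding gene of the table, LRRC75A-AS1, is also known as SNHG29 and hosts small nucleolar RNAs too, but it entered under its antisense symbol. It had 9825, 9533 and 9436 in ACh, against 10311, 10505 and 10511 in Control, a log2 difference of -0.12 (SE 0.03; limma adjusted p = 0.002). The groups did not overlap, yet the call ended with equal totals, at -0.0418 (limma adjusted p = 0.203).

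The next list held RNAs that scaffold nuclear bodies or bind proteins. Of 11 symbols fixed in this list 5 were in the table, and of these NORAD, NEAT1 and TUG1 rose, while OIP5-AS1 and JPX missed a test. That is 60.0% called, near the 63.8% of all listed genes, of which 28.8% were higher. NORAD, a cytoplasmic RNA that binds the Pumilio proteins and responds to DNA damage, lies on chromosome 20 from 36045622 to 36050960 (ENSG00000260032). It had 8419, 8281 and 7865 in ACh, against 7384, 7594 and 7338 in Control, a rise of 0.14 (SE 0.03; limma adjusted p = 0.0012). NEAT1, the scaffold of paraspeckles on chromosome 11 from 65422774 to 65445540 (ENSG00000245532), had 4117, 4521 and 4515 in ACh, against 3648, 4113 and 4145 in Control. Its groups overlapped, because ACh replicate 1 lay below Control replicate 3. It rose by 0.14, and the call ended without Control replicate 1, at 0.085 (limma adjusted p = 0.0617).

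TUG1 (taurine upregulated 1), an RNA of a bidirectional promoter on chromosome 22 from 30969245 to 30979395, had 3944, 4109 and 4123 in ACh, against 3784, 3728 and 3675 in Control. It rose by 0.12 (SE 0.03; limma adjusted p = 0.0025), and the groups did not overlap. OIP5-AS1, whose zebrafish counterpart is known as cyrano, had 1187, 1223 and 1193 in ACh, against 1151, 1078 and 1047 in Control. Its log2 difference of 0.14 (95% interval 0.04 to 0.24) missed the authors' deposited adjusted p, at 0.0996. JPX, a non-coding gene of the X inactivation centre, had 50.4, 40.7 and 35.6 in ACh, against 45.4, 81.2 and 64.5 in Control, with overlap between the groups.

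**Figure D3:**
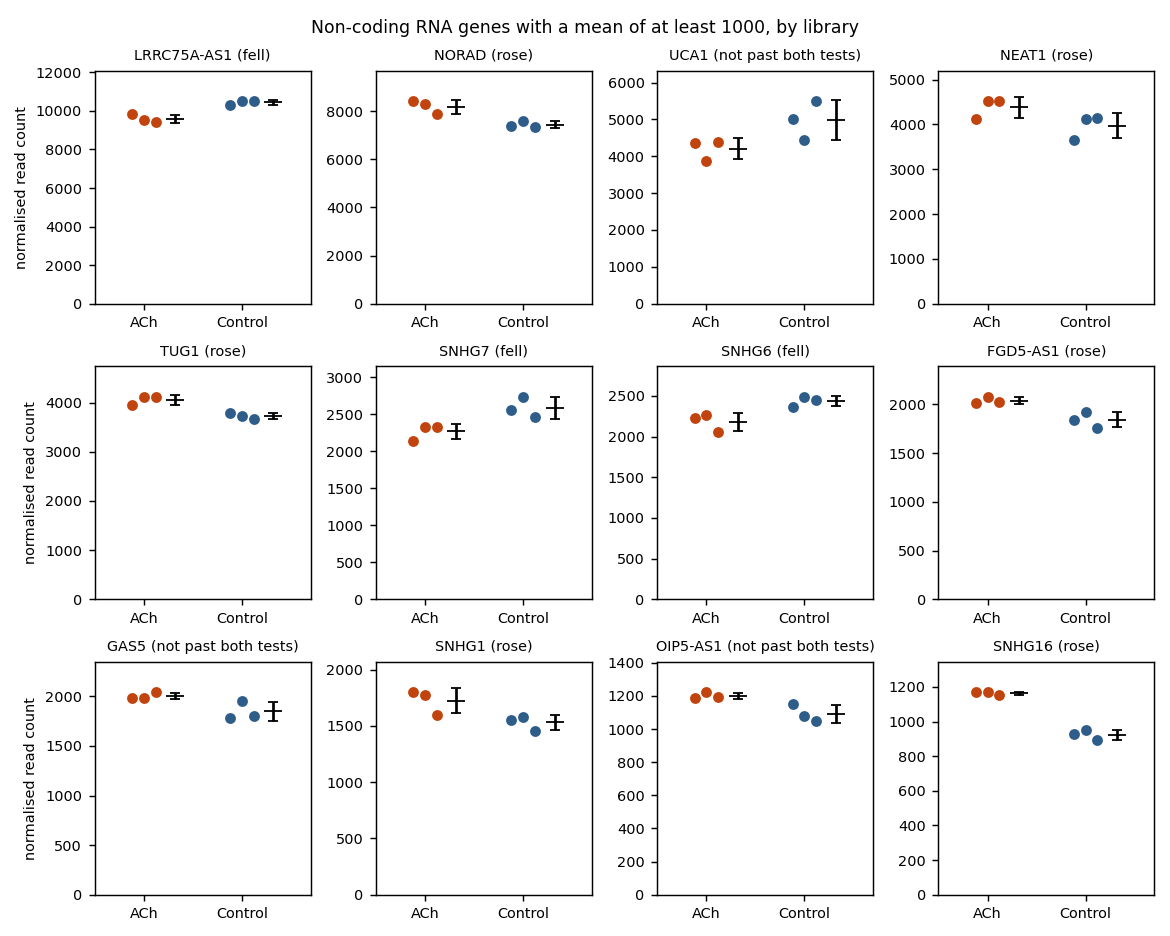
Normalised read counts of the 12 non-coding genes with a mean of at least 1000, by library, with each vertical axis starting at 0. Points are libraries, and the bar beside them is the mean and SD of 3 libraries. SNHG16 shows the widest gap relative to its spread, at 1154 to 1170 in ACh and 893 to 949 in Control, and NEAT1 is the one gene of the 12 whose groups overlap.

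UCA1, a carcinoma-associated RNA first described in urothelial cancer, was the one listed gene of the list of squamous and esophageal carcinoma RNAs. It lies on chromosome 19 from 15828206 to 15836326 (ENSG00000214049) and had 4358, 3877 and 4393 in ACh, against 5013, 4441 and 5500 in Control. The highest ACh library stood just under the lowest Control library. Its means were 4209 ± 288 in ACh and 4984 ± 530 in Control (SD, n = 3 each), and its log2 difference was -0.24 (95% interval -0.36 to -0.13). It passed limma (adjusted p = 0.0009) and missed the authors' deposited adjusted p, at 0.0715, so it did not pass both tests. UCA1 and NEAT1 were also the 2 listed genes of the hypoxia-responsive list.

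Ordered by reads per length, the abundant genes changed places. LRRC75A-AS1 had a mean of 2666 normalised reads per kilobase over the 6 libraries and SNHG6, at 1247 bases a short gene, 1849. NORAD followed with 1463 and UCA1 with 1107. NEAT1 was 4th by reads and 15th per kilobase, at 183, because its annotated length is 22767 bases. Short low genes moved up in the same way, such as AC099850.3, an antisense gene of 321 bases, which was 24th by reads and 5th per kilobase at 641.

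Among the 16 genes whose symbols mark them as antisense or divergent RNAs, 1 rose and 3 fell (25.0% called, against 63.8% of all listed genes, 28.8% higher and 35.0% lower). The other 12 missed a test, 6 of them for want of an adjusted p. FGD5-AS1, which rose, had 2018, 2081 and 2022 in ACh, against 1845, 1923 and 1763 in Control, a log2 difference of 0.15. Beside LRRC75A-AS1 the genes that fell included RAET1E-AS1. It had 151, 172 and 173 in ACh, against 226, 245 and 214 in Control, a log2 difference of -0.46 (limma adjusted p = 0.0008). In both FGD5-AS1 and RAET1E-AS1 the groups did not overlap.

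The other genes of this class with an adjusted p had log2 differences of 0.26 (OTUD6B-AS1), 0.31 (THAP9-AS1), 0.35 (DLX6-AS1), 0.14 (OIP5-AS1), -0.19 (BAIAP2-DT) and -0.25 (GATA2-AS1). GATA2-AS1, antisense to the gene of a zinc finger transcription factor, had 337, 286 and 375 in ACh, against 383, 383 and 412 in Control. The lowest adjusted p among these 6 in the authors' deposited table was 0.0667, of OTUD6B-AS1. The low members of the class were ZNF236-DT, at 27.9, 19.2 and 45.1 in ACh and 53.3, 70.0 and 52.2 in Control, and MPRIP-AS1, GAS5-AS1, IGBP1-AS1, LEMD1-AS1 and DDX39B-AS1, with at most 11.3 in any library. The means of these 5 were higher in ACh. GAS5-AS1 overlaps the 3' end of GAS5 on the other strand and had 6.43, 6.79 and 9.43 in ACh, against 0, 1.01 and 1.54 in Control.

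Further genes with a mean between 100 and 1000 changed by up to 1.56-fold, a size reached by an unannotated locus. AL049555.1, the sense_overlapping gene, on chromosome 6 from 54943167 to 54945099, had 514, 415 and 431 in ACh, against 319, 350 and 316 in Control. It had the largest rise of all non-coding genes that passed, 0.46 (SE 0.09; limma adjusted p = 0.0002), and the groups did not overlap. EBLN3P, a gene derived from an ancient bornavirus insertion and labelled lincRNA, had 692, 697 and 645 in ACh, against 584, 525 and 593 in Control, a rise of 0.26. AC005288.1, antisense, had 270, 277 and 244 in ACh, against 195, 213 and 218 in Control, a rise of 0.34.

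TP53TG1, a lincRNA gene that p53 can induce, fell, with 151, 145 and 135 in ACh, against 185, 190 and 203 in Control and a log2 difference of -0.42 (limma adjusted p = 0.0021). AC080112.1, antisense, fell as well, with 208, 189 and 219 in ACh, against 293, 252 and 271 in Control and a log2 difference of -0.40. In both genes the groups did not overlap. MIR34AHG, the host gene of a microRNA that p53 also induces, had 77.2, 57.7 and 61.8 in ACh, against 98.7, 93.3 and 88.3 in Control. Its log2 difference was -0.51 (95% interval -0.84 to -0.19), and the authors' deposited adjusted p was 0.0872, so it did not pass both tests.

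The remaining annotated genes with a mean of at least 100 did not pass both tests. Higher by their means were AC015813.6, AC099850.3, AC011632.1, LINC01806, AL136164.4, AC083843.2 and AF117829.1, with log2 differences from 0.22 for AC015813.6 to 0.45 for AF117829.1. Lower by their means were AC074117.1, AC102953.2, AC110619.1 and AC016065.1, with log2 differences from -0.33 for AC074117.1 to -0.42 for AC110619.1. In all 11 the groups did not overlap, as in 93.0% of all listed genes, and the smallest gap was that of AC102953.2, with 138, 153 and 182.4 in ACh and 212, 201 and 182.7 in Control.

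Of the 12 unannotated loci 2 rose and 2 fell, which is 33.3% called, against 63.8% of all listed genes (28.8% higher and 35.0% lower). The other 8 missed a test, 7 of them for want of an adjusted p. The locus on chromosome 1 from 43119457 to 43140441 had 226, 224 and 204 in ACh, against 168, 178 and 164 in Control, a rise of 0.36. The one on chromosome 2 from 130056398 to 130064029 had 226, 282 and 365 in ACh, against 180, 229 and 244 in Control. Its groups overlapped, and its rise of 0.40 lost its call without ACh replicate 3, at 0.225 (limma adjusted p = 0.111), and without Control replicate 1, at 0.27 (limma adjusted p = 0.0677). The locus on chromosome 9 from 66269117 to 66285637 had 159, 165 and 166 in ACh, against 194, 248 and 200 in Control, a log2 difference of -0.38. The locus on the unplaced scaffold GL000218.1 from 75456 to 97457 had 130, 123 and 84.9 in ACh, against 159, 216 and 151 in Control. Its log2 difference of -0.64 (limma adjusted p = 0.0014) was the largest change among the 112 genes described here that passed. It was also the 1 of at least 1.5-fold among them, where 35 of all listed genes that passed reached that size. Among the annotated genes that passed, the largest change was that of RAET1E-AS1, with a log2 difference of -0.46. The locus on chromosome 11 from 9328219 to 9380969, with an adjusted p but not past it, had 258, 274 and 268 in ACh, against 319, 340 and 317 in Control.

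**Figure D4:**
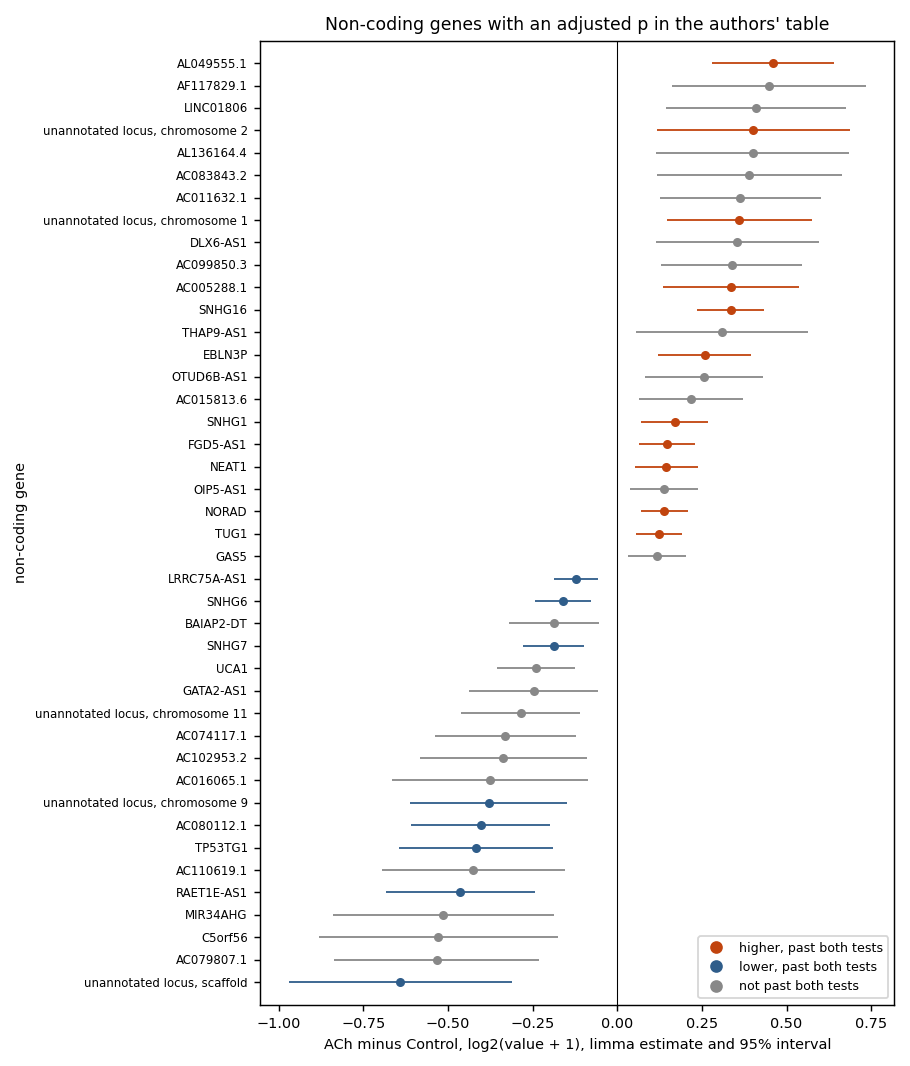
Differences between ACh and Control on the log2(value + 1) scale for the 43 non-coding genes with an adjusted p in the authors' table, with 95% intervals from limma, ordered by size; 1 lower gene is left out. Coloured points passed both tests, and grey points did not, among them UCA1, GAS5 and OIP5-AS1.

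Of the 112 genes 24 overlapped a listed protein-coding gene or had their 5' end within 5 kb of one, which gave 24 pairs. Counting is not stated to use strand, so a read in a stretch that 2 genes share may belong to either. Neighbours outside the table have no value here. In the 8 pairs whose non-coding gene had an adjusted p, 7 had the same sign, against 310 of 328 pairs of neighbouring listed protein-coding genes (94.5%). In the 16 pairs with a low non-coding gene, 7 had the same sign. Pairs were counted by sign, without a test.

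SNHG1 and SLC3A2 were the pair with opposite signs, and both passed. SLC3A2, the heavy chain of amino acid transporters at the cell surface, starts 188 bases from SNHG1 on the other strand and does not overlap it. It had 10755, 10897 and 10743 in ACh, against 12149, 12364 and 12322 in Control, a log2 difference of -0.19 (limma adjusted p = 6.74e-05), where SNHG1 stood at 0.17.

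GAS5 and ZBTB37, a zinc finger gene that overlaps it by 801 bases, had log2 differences of 0.12 and 0.32, and ZBTB37 passed both tests. OTUD6B-AS1 and OTUD6B, a deubiquitinase gene that starts 7 bases away, had 0.26 and 0.32. BAIAP2-DT and BAIAP2 had -0.19 and -0.18, AC110619.1 and the glypican gene GPC1 -0.42 and -0.17, THAP9-AS1 and SEC31A 0.31 and 0.14, and AF117829.1 and the kinase gene RIPK2 0.45 and 0.22. Of these partners OTUD6B, BAIAP2 and GPC1 passed both tests. THAP9-AS1 lies with its whole span of 7952 bases within SEC31A on the same strand. AC110619.1 lies with its whole span of 7400 bases within GPC1 on the other strand. The values of these 2 pairs may therefore share reads, and so may those of GAS5 and ZBTB37 in the 801 bases they share.

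**Figure D5:**
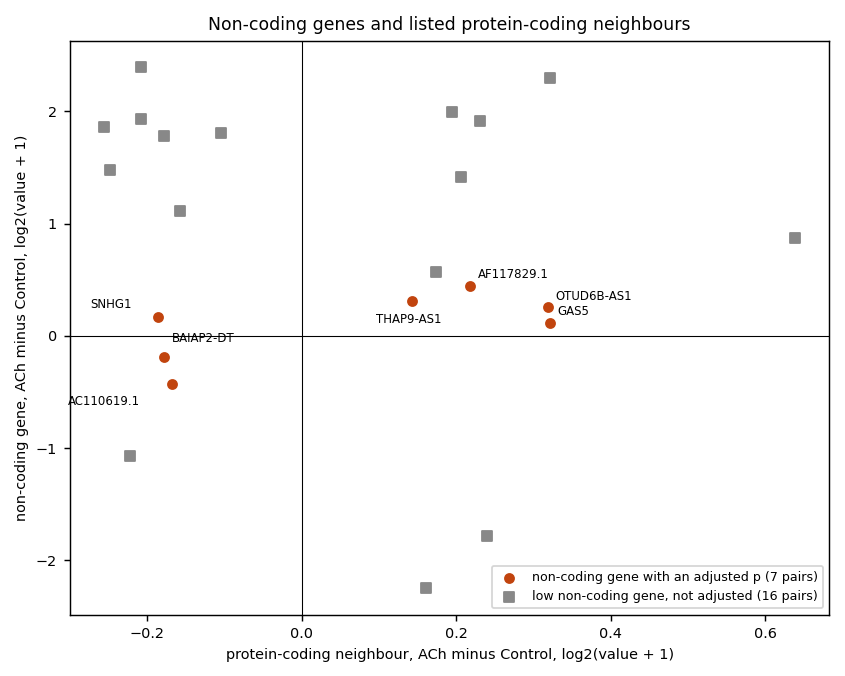
Log2 difference of each non-coding gene against that of the listed protein-coding gene that overlaps it or starts within 5 kb, for the 24 pairs but 1, which is left out. Of the pairs with an adjusted p (circles) SNHG1 alone lies in a quadrant of opposite sign, and the 16 low genes (squares) are spread over both signs.

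The 11 genes that rose lay on chromosomes that differed in how many listed protein-coding genes had a higher mean in ACh. The share was 17.1% on chromosome 22 (TUG1), 21.8% on chromosome 20 (NORAD) and 21.8% on chromosome 17 (SNHG16 and AC005288.1). It was 34.5% on chromosome 11 (NEAT1 and SNHG1), 37.6% on chromosome 9 (EBLN3P) and 49.9% on chromosome 1 (an unannotated locus). On chromosome 6 (AL049555.1) it was 58.1%, on chromosome 3 (FGD5-AS1) 65.5% and on chromosome 2 (an unannotated locus) 72.5%. Genes that fell lay on some of the same chromosomes. Chromosome 17 held 2 (LRRC75A-AS1 and AC080112.1), chromosome 9 held 2 (SNHG7 and an unannotated locus) and chromosome 6 held 1 (RAET1E-AS1). Others lay on chromosomes without a rise. The share was 62.3% on chromosome 8 (SNHG6) and 49.2% on chromosome 7 (TP53TG1). An unannotated locus that fell lay on the unplaced scaffold, and 1 more gene is not reported here. The shares are a description, without a test.

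Small RNA genes were few and low. The kit was an mRNA library kit per the labels, and no small RNA library is among these samples. SNORA55, a snoRNA gene of 135 bases within the gene of the poly(A)-binding protein PABPC4 on the same strand, had 16.1, 18.1 and 11.5 in ACh, against 6.91, 8.12 and 4.61 in Control, while PABPC4 fell, with a log2 difference of -0.16. RNU6-301P (labelled snRNA) and RN7SL473P (labelled misc_RNA) belong to families of many similar copies. Their values are therefore uncertain and are not read here as those of the main genes of these families. RNU6-301P had 8.58, 1.13 and 2.10 in ACh and was listed at 0 in the 3 Control libraries, and RN7SL473P had 5.36, 1.13 and 8.38 in ACh, against 0.987, 0 and 0 in Control. The microRNA gene MIR4442, of 67 bases and overlapping TOP2B on the same strand, was listed at 0 in the 3 ACh libraries and had 1.97, 4.06 and 6.14 in Control.

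In 16 of the 112 genes every library of one group was listed at 0 and these 16 were among 28 such genes in the whole table. In 11 of the 16 it was the Control group and in 5 the ACh group, and how the 28 were split was not counted. The listed genes held 11258647 to 14453391 steps in the Control libraries and 9420144 to 10036897 in the ACh libraries. Whether depth plays a part in the zeros was not tested. The 16 genes had 7 to 14 steps over all 6 libraries, and at most 8 in 1 library. No fold is given for them. Apart from RNU6-301P and MIR4442 the set held, among others, AC083806.2, with 3.22, 5.66 and 4.19 in ACh, and the lincRNA gene LINC01943, with 6.43, 3.39 and 1.05, both at 0 in Control.

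Of the other LINC genes without an adjusted p, LINC01311 had 24.7, 26.0 and 19.9 in ACh, against 41.5, 40.6 and 41.5 in Control, LINC02178 had 17.2, 27.2 and 14.7 in ACh, against 11.8, 7.10 and 9.21 in Control, and LINC02193 had 2.14, 0 and 2.10 in ACh, against 9.87, 7.10 and 3.84 in Control. AL590326.1, a TEC gene, had 1.07, 0 and 0 in ACh, against 14.8, 7.10 and 7.68 in Control. AL590004.3 stood at 1.05 to 1.13 in ACh and 3.84 to 13.2 in Control, AC010531.6 at 0 to 2.26 in ACh and 4.61 to 10.9 in Control, and AC138932.2 at 0 to 1.07 in ACh and 2.96 to 7.10 in Control. AC004069.1 stood at 5.24 to 9.05 in ACh and 0 to 1.01 in Control, and AC008781.2 at 4.19 to 4.53 in ACh and 0 to 1.01 in Control. From AL590326.1 to AC008781.2 no library exceeded 14.8, so that these differences rest on few steps. The 48 genes not named by the rule had means of at most 84.6, 24 of them higher and 24 lower in ACh.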

How the data were processed

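RNA was sequenced from 3 ACh and 3 Control samples of KYSE30 cells and its libraries were made with the SMARTer kit for mRNA, per the labels' protocols. The deposited values are a signal, read counts that the authors divided by one factor per library. This was read from the values. Per the file headers, the table also holds the authors' log2 fold changes, p-values and adjusted p-values, and their test is not given in the sources used here. The adjusted values correspond to 11193 tests. The submitters' processing notes name Bowtie 0.12.2, mm10 and mm8 and the organism label is mouse, but the gene IDs are human. No human sequence was used here, so no sequence or GC content is given.

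limma 3.58.1 (limma-trend, R 4.3.3) was fitted to log2(value + 1) over all 4195 listed genes, with group as the only term. The fit was also run on simulated data in which genes had not been chosen for a difference. That run does not show how the fit behaves on this table. Since the table holds genes chosen for a difference, limma called all 112 non-coding genes and is no independent support for the authors' calls. Adding 1 understates differences of low genes. The choice of genes by p works the other way, because a low gene was listed only where its difference was large. The limma estimates and intervals carry that choice. Which of these weighs more was not tested. Members and lists were chosen with earlier results of these data known. Named are genes with a mean of at least 100, members of 8 lists, and the 4 largest rises and falls without overlap among the others; C5orf56 and AC079807.1 fall outside that rule and appear in a plot alone. For all 112 genes, listed protein-coding genes that overlap or start within 5 kb were examined. Python 3.11.15, pandas 2.3.3, NumPy 2.4.6 and Matplotlib 3.10.9 were used. The values of 1 gene that passed both tests are not reported here; it stays in the counts.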

Additional observations from a re-analysis of the deposited data

How the results depend on the processing

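The counts of 11 higher and 9 lower genes stayed the same with a pseudocount of 0.1 and a minimum mean of 20. They also stayed the same with the authors' adjusted p alone and with adjustment over 11193 tests. Every setting in this section except limma alone kept the authors' adjusted p as deposited. That value by itself gives 11 and 9, so no such setting could add a call. A minimum mean of 20 could take out no called gene, since all had a mean of at least 100. Unchanged counts are therefore weak support. Scaling to equal totals over the listed genes shifted the median listed gene by 0.08 on the log2 scale and gave 11 higher and 7 lower, and moved the share of higher calls in the table to 54.9%, against 45.1%. With limma alone 60 were higher and 52 lower, because the table holds genes chosen for a difference. A minimum change of 1.5-fold left 0 higher and 1 lower. Leaving out each library in turn, with the authors' adjusted p kept as deposited, gave 9 to 11 higher and 9 to 9 lower. No named gene changed sign under these alternatives. That was largely assured, because every listed gene had been chosen for a difference in these same libraries, so it is no separate support for the directions. The calls lost, other than to the 1.5-fold minimum, are given with their genes above. The replicate block gave 11 higher and 9 lower. The labels' replicate numbers are shared by number alone: deviations of same-numbered libraries correlated at 0.0878, 0.104 and 0.193 over 3934 genes, short of 0.1 in 1 pair, although each library correlated best with its own number. Count models (planned as alternatives) were not run, since counts were not rebuilt from the values. Depth is unknown and limits the genes of a few steps most.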
